A study of Drosophila melanogaster with 2 samples.

Results

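Core splicing factor genes encode the proteins of the spliceosome, and here they are the 32 genes of Ensembl release 115 whose symbols begin with Prp and a number, Sf3a, Sf3b, LSm and a number, Sm and one of the letters B to G that name the ring subunits, U2af or snRNP-. They are 32 of 17683 annotated genes on the chromosome arms in the peak lists, and all 32 are protein-coding, among 13945 protein-coding genes. Genes of the same complexes that carry other names, such as Phf5a, are given separately below. At these genes the binding of CG34376 was read from ChIP-seq peak lists. Chromatin came from whole Drosophila melanogaster embryos of pooled sexes, aged 0 to 24 h, of a transgenic line that stably makes CG34376 with GFP at its C terminus, so cells of every embryonic tissue and stage are averaged. The 2 libraries, biological replicates 2 and 3, form 1 group with no second genotype or treatment, so the members were set against other genes of the same lists. A free-text label calls both libraries input controls, while the assay title and the antibody label name a transcription factor ChIP-seq against CG34376, and they were read as immunoprecipitations. Promoter binding at CG34376 itself had a signal of 1355, rank 40 of the pooled list.

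The spliceosome removes introns from pre-mRNA. It assembles stepwise: U1 snRNP marks the 5' splice site, U2AF and U2 snRNP mark the 3' splice site and the branch site, the U4/U6.U5 tri-snRNP joins, and the Prp19 complex and a series of helicases drive activation and catalysis. Rings of Sm proteins form the core of most spliceosomal snRNPs, and LSm rings bind U6 snRNA or, with another subunit, take part in mRNA decay in the cytoplasm. The genes are housekeeping genes, and in flies promoters of such genes often carry the DNA replication-related element (DRE), bound by DREF, or Motif 1, bound by M1BP.

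A gene was called bound when the summit of a thresholded peak lay within 500 bp of one of its annotated starts. Of the 11 bound members, 8 lie on arms whose sequence is shown here, as sequence near their summits. Each line gives, on the strand of the member gene and in build dm6 (Release 6 genome sequence), the longest stretch within 100 bp of the strongest summit that no annotated exon covers. At U2af50 and Sf3b3 the summit itself lies in an exon, outside the stretch shown. Capitals mark matches on either strand to CGATA, the shared core of several sites, to the whole DRE (TATCGATA), to the core of Motif 1 (GGTCACAC), to the GATA-type site GATAAG, to the GAGA-type site GAGAG and to the hexamer ACACTG. TATCGATA holds CGATA on both strands and its last letters can begin GATAAG, while the end of GGTCACAC can begin ACACTG, so neighbouring matches overlap. The last line, Prp39, is a member that was not bound and was chosen after its values were seen, because it holds the DRE in 2 places.
Sf3a1 (chr3R:17002672-17002872, minus strand): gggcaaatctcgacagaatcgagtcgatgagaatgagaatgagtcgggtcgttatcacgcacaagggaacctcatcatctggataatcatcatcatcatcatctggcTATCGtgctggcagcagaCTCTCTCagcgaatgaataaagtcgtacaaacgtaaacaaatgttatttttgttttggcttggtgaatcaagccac
U2af50 (chrX:16359070-16359142, minus strand): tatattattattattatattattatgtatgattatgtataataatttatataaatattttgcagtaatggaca
Sf3b1 (chr2L:568129-568329, plus strand): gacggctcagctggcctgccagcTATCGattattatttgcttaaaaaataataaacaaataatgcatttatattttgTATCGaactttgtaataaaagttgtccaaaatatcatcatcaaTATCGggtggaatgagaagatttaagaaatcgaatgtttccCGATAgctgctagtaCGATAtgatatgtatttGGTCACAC
Sf3b6 (chr3L:6193201-6193401, minus strand): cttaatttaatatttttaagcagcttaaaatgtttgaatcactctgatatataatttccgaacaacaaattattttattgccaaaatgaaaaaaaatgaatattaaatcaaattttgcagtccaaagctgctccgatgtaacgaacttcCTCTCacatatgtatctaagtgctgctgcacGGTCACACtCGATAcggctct
Prp3 (chr3L:19910216-19910299, plus strand): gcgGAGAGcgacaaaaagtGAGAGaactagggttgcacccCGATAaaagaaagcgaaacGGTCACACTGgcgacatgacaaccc
Sf3b3 (chr3L:833386-833437, minus strand): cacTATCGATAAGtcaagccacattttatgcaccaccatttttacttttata
U2af38 (chr2L:294999-295121, minus strand): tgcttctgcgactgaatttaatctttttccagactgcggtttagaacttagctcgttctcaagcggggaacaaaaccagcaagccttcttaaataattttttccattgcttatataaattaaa
snRNP-U1-C (chr3R:18983662-18983862, minus strand): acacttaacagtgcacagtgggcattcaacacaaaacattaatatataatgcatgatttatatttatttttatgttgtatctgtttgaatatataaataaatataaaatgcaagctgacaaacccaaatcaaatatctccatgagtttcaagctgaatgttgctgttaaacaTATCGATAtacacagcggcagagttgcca
Prp39 (chr3R:28811938-28812101, plus strand): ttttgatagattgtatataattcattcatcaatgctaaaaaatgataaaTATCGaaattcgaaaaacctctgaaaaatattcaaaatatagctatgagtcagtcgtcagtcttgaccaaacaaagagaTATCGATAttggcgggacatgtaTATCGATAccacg

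The Sf3b1 stretch held CGATA in 5 places, 188, 134, 91, 50 and 35 bp upstream of the start, and the core of Motif 1 at 18 bp upstream. In Sf3b6 and Prp3 the core of Motif 1 lay 42 and 25 bp upstream of the start with a CGATA 33 and 44 bp upstream. Sf3b3 and snRNP-U1-C carried a full DRE, 49 and 40 bp upstream. The U2af50 and U2af38 stretches held none of these letters, though the full 100 bp on each side of the U2af38 summit, exons included, held a CGATA. At U2af50 a CGATA lay in the window from 250 bp before to 50 bp after the first start. Prp39 carried its DREs 36 and 13 bp upstream of the start, nearer to its candidate summit (28 and 51 bp) than those of Sf3b3 and snRNP-U1-C were to their summits (97 and 72 bp). A match describes letters in a window and not a bound site.

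Of the 32 members, 11 (34.4%, 95% Wilson interval 20.4 to 51.7) were bound. Taking the 7025 highest candidates of each replicate alone, as many as the thresholded list has, 9 were bound in replicate 2 and 11 in replicate 3 (31.25% ± 4.42, SD, n = 2 replicates). The background was 30.1% of protein-coding genes (29.4% ± 0.908, SD, n = 2) and 26.1% of all genes. Members mostly have 1 annotated start (27 of 32), and of protein-coding genes with 1 start 23% were bound. The share of members bound was therefore near that of protein-coding genes, whose share lies within the interval of the members.

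Weaker candidates were present at most other members, but the pooled list is labelled as holding background as well as peaks. A candidate alone is therefore not a bound site. A pooled candidate of any strength lay within 500 bp of a start at 28 members (87.5%), against 60.4% of protein-coding genes. Of those 28, 11 (39.3%) reached the thresholded list, against 49.7% of protein-coding genes with such a candidate. The median signal of the candidates was 126 at the members, against 162 at protein-coding genes, and the median pooled rank 9626.5 against 7085.5, where rank 1 is the strongest. The signal is the authors' value per peak, in units of their own, and was compared only within the pooled list. At the 17 members with a pooled candidate only, the authors' −log10 q-value ran from 0.470 at SmE to 3.72 at SmF. Among bound genes the medians were close: 254 at the 11 members (range 165 to 575) and 268 at protein-coding genes. Candidates were thus more frequent at members than at protein-coding genes, while the candidates present were lower on the list. Members also have another gene's start within 500 bp more often (71.9% against 34.4%), and the candidate shares were not matched for this.

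**Figure D1:**
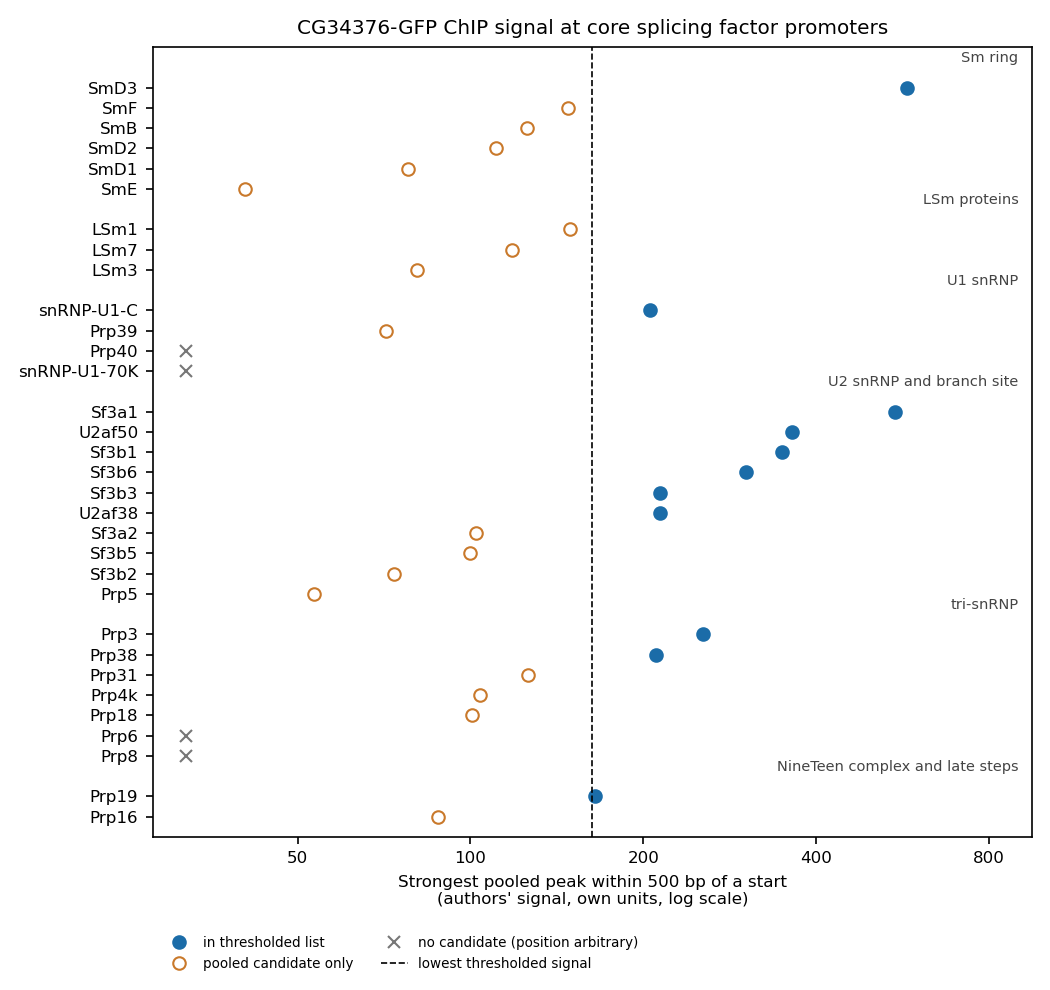
Signal of the strongest pooled candidate within 500 bp of a start (authors' units, log scale) for each of the 32 members, grouped by role. Filled circles are the 11 members in the thresholded list, open circles the 17 with a pooled candidate only, crosses the 4 with none (placed at an arbitrary position), and the dashed line is the lowest thresholded signal, 163. The U2 snRNP and branch site group, the largest with 10 members, holds 6 of the 11 filled circles.

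Proteins of the U2 snRNP and of branch site recognition were the largest role, with 10 of the 32 members. They had the most bound promoters, 6 of 10 (Wilson interval 31.3 to 83.2). The background was 30.1% of protein-coding genes and 46.9% of those with another gene's start within 500 bp. When only the nearest start was allowed to claim a peak, 2 of 10 were called, against 23.7% of protein-coding genes, a share not matched for close neighbours. Sf3a1, a subunit of the SF3a part of U2 snRNP (FBgn0266917, chr3R:16999384-17002355, minus strand), was the strongest of the 6. It had a signal of 548, pooled rank 629, rank 749 in replicate 2 and rank 642 in replicate 3. U2af50, the large U2AF subunit, which binds the polypyrimidine tract (FBgn0005411, X), had a signal of 364, pooled rank 1657 and ranks 1800 and 1701 in replicates 2 and 3. Sf3b1, which holds the branch site helix and is the target of splicing inhibitors (FBgn0031266, chr2L:568340-572907, plus strand), had a signal of 348, pooled rank 1827 and ranks 1996 and 1658. These 3 promoters stood well inside the highest 7025 of both replicates.

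Sf3b6, the subunit that contacts the branch point (FBgn0035692, 3L), had a signal of 302, pooled rank 2450 and ranks 3613 in replicate 2 and 1593 in replicate 3. Sf3b3, a scaffold subunit of SF3b (FBgn0035162, 3L), had a signal of 214, pooled rank 4650 and ranks 4499 and 5940. U2af38, the small U2AF subunit, which reads the AG of the 3' splice site (FBgn0017457, 2L), had a signal of 214 as well, pooled rank 4673, and ranks 8072 in replicate 2 and 3218 in replicate 3. U2af38 was the only bound U2 group member outside the highest 7025 of a replicate, replicate 2. The 4 U2 group members that were not bound were Sf3a2 (signal 102, ranks 12995 and 9192 in replicates 2 and 3), Sf3b5 (99.8, ranks 14744 and 10431), Sf3b2 (73.5, no candidate in replicate 2 and rank 11613 in replicate 3) and the helicase gene Prp5 (53.3, ranks 24411 and 27426). All 4 lay past rank 7025 in both lists wherever a candidate was present. The SF3a and SF3b subunits, which work as complexes, therefore ranged from 548 at Sf3a1 to 73.5 at Sf3b2.

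Of the 6 Sm ring genes only SmD3 was bound. SmD3 (FBgn0023167), a subunit of the heteroheptameric ring around snRNA, had the highest signal of all members, 575, with pooled rank 558, rank 723 in replicate 2 and rank 403 in replicate 3. It was also the only member with a second thresholded summit, of signal 248, 104 bp downstream of the start, against 114 bp upstream for the stronger one. SmF had a signal of 148 and pooled rank 7959, with rank 11172 in replicate 2 and rank 4316 in replicate 3, so it was bound with replicate 3 alone and not in the thresholded list. SmB (126, ranks 7755 and 16089 in replicates 2 and 3), SmD2 (111, ranks 10844 and 15195), SmD1 (78.0, ranks 16489 and 11787) and SmE (40.6, rank 14627 in replicate 2 and no candidate in replicate 3) lay past rank 7025 in every list that holds them. Subunits of 1 ring thus spanned the whole range of the members, from SmD3 to SmE.

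None of the 3 LSm genes was bound. LSm1, a subunit of the cytoplasmic decay ring, came closest, with a signal of 149, pooled rank 7860 and ranks 9057 and 8700 in replicates 2 and 3. LSm7 had a signal of 118 (ranks 15234 and 8384) and LSm3 one of 80.6 (ranks 10602 and 16782). With 3 genes, the Wilson interval of the share reaches 56.1%, so a low share is not shown.

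Among U1 snRNP genes, 1 of 4 was bound. snRNP-U1-C, whose product steadies the pairing of U1 with the 5' splice site (FBgn0261792, chr3R:18982964-18983650, minus strand), had a signal of 206, pooled rank 4930 and ranks 7470 in replicate 2 and 3764 in replicate 3. Prp39 had a signal of 71.3 (ranks 23203 and 13857). Prp40 and snRNP-U1-70K had no pooled candidate within 500 bp of a start, and their nearest pooled summits lay 5952 and 2555 bp downstream. In a replicate alone, snRNP-U1-70K had a candidate of rank 8044 in replicate 3 and Prp40 one of rank 26355 there, and neither had one in replicate 2.

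Of the 7 tri-snRNP genes 2 were bound, and 0 when only the nearest start could claim a peak. Prp3, a U4/U6 protein (FBgn0036915, chr3L:19910300-19912504, plus strand), had a signal of 254, pooled rank 3458 and ranks 5372 and 2967 in replicates 2 and 3. Prp38, needed for activation of the assembled complex (FBgn0050342), had a signal of 211, pooled rank 4754 and ranks 4376 and 6429. Prp31, the other U4/U6 protein of the set, had a signal of 126 (ranks 9469 and 10078), the kinase gene Prp4k 104 (ranks 11611 and 14233) and Prp18, a factor of the second catalytic step in yeast, 101 (ranks 14338 and 12433). Prp6 and Prp8 had no pooled candidate, and Prp6 had none in either replicate. Prp8, which forms the core of the active site, had a candidate in each replicate, of rank 7803 in replicate 2 and rank 7807 in replicate 3, although its nearest pooled summit lay 1321 bp upstream of the start. The pooled list therefore does not hold every promoter candidate that both replicates hold.

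Of the 2 late-acting genes, Prp19, a ubiquitin ligase and the namesake of the Prp19 complex (FBgn0261119), was bound with the lowest signal of the bound members, 165, pooled rank 6914, rank 6072 in replicate 2 and rank 8623 in replicate 3. The helicase gene Prp16 had a signal of 87.9 (ranks 14924 and 12956). The threshold fell between Prp19 at rank 6914 and LSm1 at rank 7860, so the call of these 2 genes rests on a difference of 165 to 149 in signal. The counts by role were small and no difference between roles was tested.

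**Figure D2:**
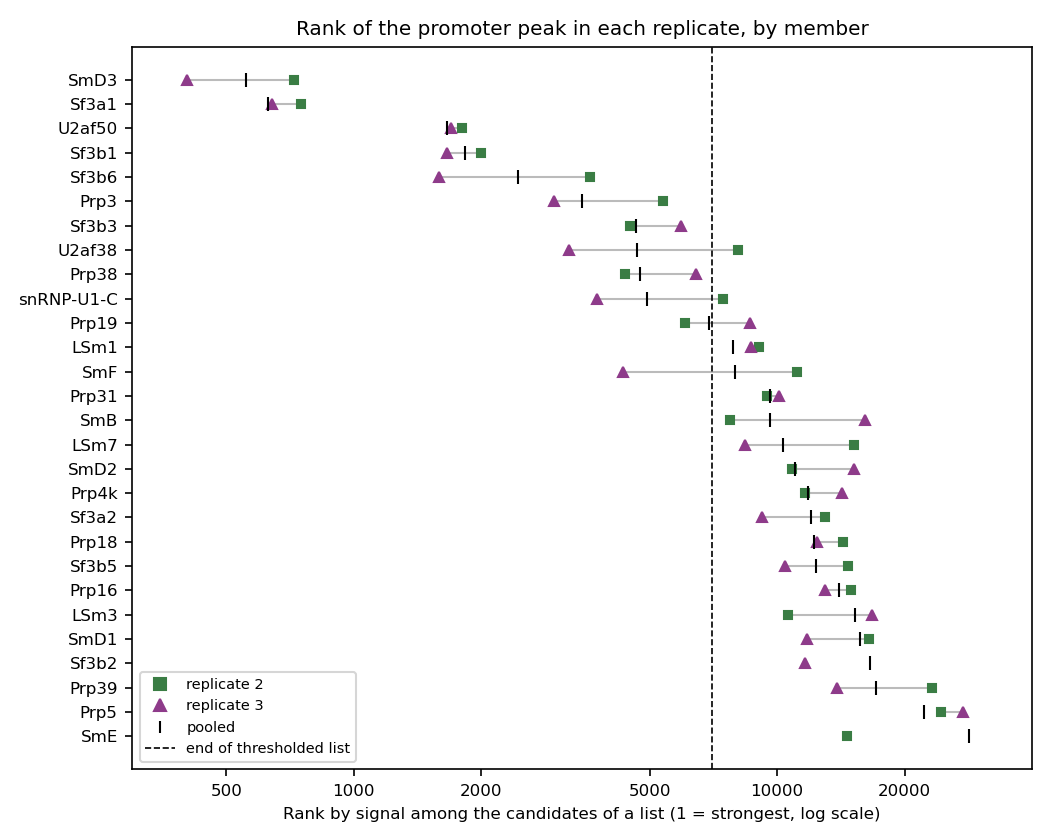
Rank by signal (log scale, 1 is the strongest) of the promoter candidate of the 28 members with a pooled candidate, in replicate 2 (squares), replicate 3 (triangles) and the pooled list (ticks), ordered by pooled rank, with the end of the thresholded list at rank 7025 (dashed line). Of the bound members 8 lie left of the line in both replicates, and U2af38, snRNP-U1-C, Prp19 and SmF lie on different sides of it in replicates 2 and 3.

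Of the 11, 8 were among the 7025 highest of both replicates, against 82.6% of all bound genes. The remaining 3, U2af38, snRNP-U1-C and Prp19, were there in 1 replicate only. The larger of the 2 ranks was a median of 1.47 times the smaller (range 1.06 to 2.51), against 1.39 times at bound protein-coding genes. The larger gaps were at U2af38, with rank 8072 in replicate 2 and 3218 in replicate 3, and at Sf3b6, with 3613 and 1593. Per the labels, 1 control file served both replicates, so their values are not fully independent.

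The strongest summits at bound members mostly lay upstream of the start and near the start of a divergent gene. The median position was 112 bp upstream of the member's start (range 418 upstream to 48 downstream), against 74 bp upstream at bound protein-coding genes, and 10 of 11 (90.9%) were upstream, against 71.1%. All 11 summits were also no more than 500 bp from the start of another gene, against 49.1% of those at bound protein-coding genes. In 10 of the 11 (90.9%) the other gene was protein-coding and divergent, that is, it ran the other way from a start upstream of the member's own, against 42.0% of bound protein-coding genes. For Sf3b3 the other gene was snoRNA:Psi18S-1086, on the same strand with its start 176 bp downstream. A peak at such a place was counted for both genes.

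The partner's start was often the nearer. At Sf3a1 the summit lay 417 bp from the member's start and 103 bp from that of Irc, a catalase gene. At U2af38 it lay 418 bp from the member's start and 23 bp from that of Stip1, a co-chaperone gene. At Prp3 it lay 76 bp away and 9 bp from the start of Mi-2, the ATPase of a chromatin remodeller. The summits of U2af50 (27 bp from a start of PIG-Q), Sf3b1 (108 bp from Nle, against 111 bp from its own) and Prp38 (18 bp from shrb) were also nearer to the partner. SmD3 with Oda, Sf3b6 with Tnpo, snRNP-U1-C with gukh, Prp19 with rswl and Sf3b3 had their own start nearest. The own start was thus the nearest in 5 of 11 (45.5%), against 76.8% of bound protein-coding genes. With only the nearest start allowed to claim a peak, 5 of 32 members were called, against 23.7% of protein-coding genes. Neither background was matched for close neighbours. All 11 summits had another gene's start within 500 bp, against 49.1% of those at bound protein-coding genes. Where no other start is that close, the own start is the nearest by construction. The peak lists do not tell which of the 2 genes a summit between them acts on.

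**Figure D3:**
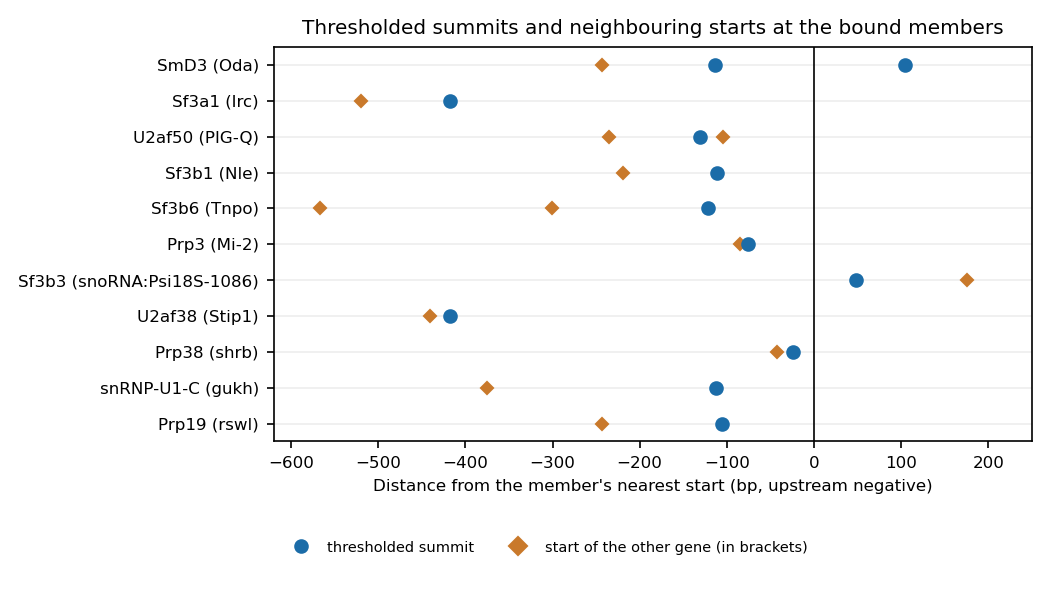
Position of the thresholded summits (circles) and of the other gene's starts within 500 bp of the strongest summit (diamonds) at the 11 bound members, in bp from the member's nearest start, with upstream negative; the other gene is named in brackets. In 10 rows a partner start lies to the left of 0, and at Sf3a1 and U2af38 the summit sits beside it, 417 and 418 bp from the member's own start.

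Members lie close to other genes more often than protein-coding genes do. A start of another gene lay within 500 bp of a start of 23 of the 32 members (71.9%), against 34.4% of protein-coding genes. Of these 23 members, 10 were bound, against 46.9% of protein-coding genes with such a neighbour. Of the 9 members without one, 1 was bound, Sf3a1, whose partner start lies 520 bp away, against 21.2% of protein-coding genes without a neighbour. Counts this small do not show a difference from the background share in either class. Members that were not bound had such partners too: at 11 of them the strongest candidate was no more than 500 bp from a partner's start, and a divergent protein-coding partner was among the neighbours of all 11. The candidate lay nearer to the member's own start in 10 of these 11, against 5 of the 11 bound members. Among these are SmD1 with Ptp69D, SmB with KdelR, Prp31 with Msh6 and Sf3b2 with CG17219.

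The bases around the starts were compared over a fixed window, 250 bp before to 50 bp after the first start, which does not depend on the peaks. All 10 motifs were counted on both strands. CGATA was in 23 of 32 member promoters (71.9%, Wilson interval 54.6 to 84.4), against 47.4% of protein-coding promoters and 58.4% of those with another start within 500 bp. The DRE was in 8 (25%, 13.3 to 42.1), against 9.36% and 15.3%. The core of Motif 1 was in 9 (28.1%, 15.6 to 45.4), against 7.70% and 12.8%. These 3 motifs were more frequent in member promoters than in protein-coding promoters, whose shares lie below the members' intervals. Among the 23 members that have another start within 500 bp themselves, CGATA was in 19 (82.6%, 62.9 to 93.0), the DRE in 8 (34.8%, 18.8 to 55.1) and the core of Motif 1 in 7 (30.4%, 15.6 to 50.9), so the 58.4%, 15.3% and 12.8% of protein-coding promoters with such a neighbour also lie below the intervals.

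Bound and unbound members held most of these motifs at similar shares. The core of Motif 1 was in 3 of 11 bound members and in 6 of 21 members that were not bound, and the DRE in 3 and 5. CGATA was in 10 of 11 bound members (90.9%, 62.3 to 98.4) and 13 of 21 others (61.9%, 40.9 to 79.2), with overlapping intervals. Within 100 bp of the strongest summit, CGATA was found at 9 of 11 bound members (81.8%), against 43.1% of bound protein-coding genes. The core of Motif 1 was there at 3 (27.3%), against 5.37%, and TATAAA at 6 (54.5%), against 27.2%. For these 3 motifs the background lay below the members' Wilson interval, for TATAAA only just. The summit backgrounds were not matched for close neighbours: all 11 member summits lay within 500 bp of another gene's start, against 49.1%. The DRE was at 2 (18.2%, 5.14 to 47.7), against 7.25%, and the initiator core TCAGT at 2 (18.2%), against 35.6%. Both backgrounds lay within the members' interval, as did those of the remaining motifs in these summit windows. GATAAG was in 6 of 32 fixed promoter windows (18.75%), against 18.9%, and TATAAA in 18 (56.25%), against 45.8%. GAGAG was in 4 (12.5%, Wilson interval 4.97 to 28.1), against 29.7% and, with a close neighbour, 25.4%. For GAGAG the first background lay above the members' interval and the second within it. ACACTG was in 9 (28.1%), against 18.9%, TCAGT, the initiator core, in 13 (40.6%), against 51.5%, and CAGCTG, the core of Ohler motif 5, in 6 (18.75%), against 17.7% and, with a close neighbour, 23.4%. CACGTG was in none of 32, which allows a share of up to 10.7% by the Wilson interval, against 4.20%.

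**Figure D4:**
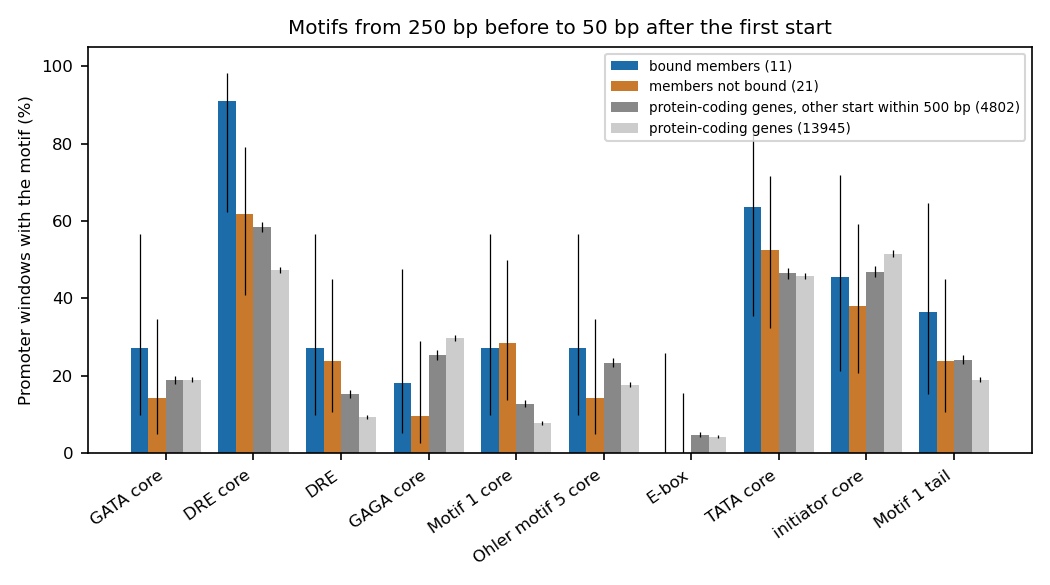
Share of fixed promoter windows (250 bp before to 50 bp after the first start) that hold each motif, with 95% Wilson intervals, in bound members, members that were not bound, protein-coding genes with another start within 500 bp and all protein-coding genes. The DRE core is CGATA and the Motif 1 tail ACACTG; bound and unbound members overlap in their intervals at every motif.

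Other genes of splicing, in lists outside the members' symbol rule, had 21.4% to 53.8% bound, with wide intervals. Of 35 other spliceosome genes 13 (37.1%, Wilson interval 23.2 to 53.7) were bound, led by BCAS2, a Prp19 complex subunit (signal 612, ranks 538 in replicate 2 and 449 in replicate 3, with a start of RpL4 within 500 bp), and Phf5a, an SF3b subunit (432, ranks 1228 and 1038). SR proteins, which bind exonic enhancers, and their kinases had 7 of 13 (53.8%, 29.1 to 76.8), led by the kinase genes SRPK (520) and Doa (448). Genes of hnRNPs and splicing regulators had 10 of 26 (38.5%, 22.4 to 57.5), led by elav, the neuronal regulator (1630, pooled rank 22), and mbl (678). These lists have intervals that include the 30.1% of protein-coding genes. SR protein and kinase genes had the highest share of the 3, with 6 bound in replicate 2 and 8 in replicate 3.

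In the smaller lists single genes move the share. The exon junction complex had 3 of 6 bound, led by Acn (356) and RnpS1 (232), but 2 in replicate 2 alone and 5 in replicate 3 alone. The SMN complex and the factors that assemble snRNPs had 3 of 11, led by Smn (249) and coil (222). Of 28 spliceosomal snRNA genes, transcribed from promoters of their own kind, 6 were bound (21.4%, 10.2 to 39.5), against 26.1% of all genes. They were led by snRNA:U2:34ABb (493) and the neighbours snRNA:U6:96Ab and snRNA:U6:96Ac, which share 1 summit (303). snRNA genes belong to families of near-identical copies, and how reads that match several copies were placed is not given in the sources used here.

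**Figure D5:**
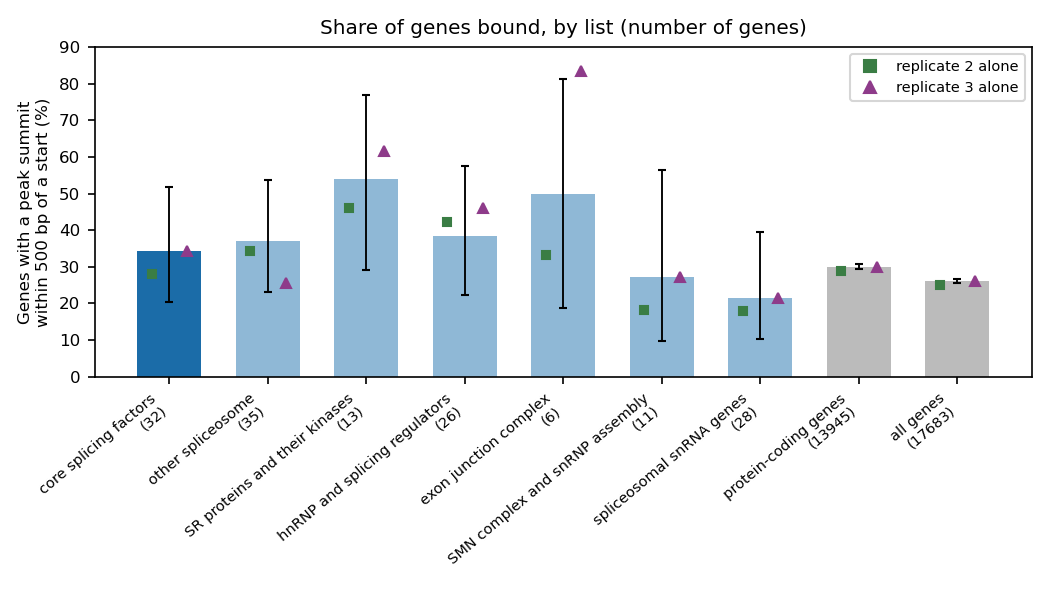
Percent of genes called bound, with a thresholded summit no more than 500 bp from any start (bars, with 95% Wilson intervals) for the core splicing factors, 6 further splicing lists, protein-coding genes and all genes, with the share among the 7025 highest candidates of replicate 2 (squares) and replicate 3 (triangles). The core factors, at 34.4%, sit beside protein-coding genes at 30.1%, and the intervals of all 6 further lists span that level.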

How the data were processed

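Peak lists of 2 ChIP-seq libraries of 1 group were analysed, with candidates per replicate and for the pool, and a thresholded set. Per the labels the build is dm6. The authors deposited for each peak a signal in units of their own and a −log10 q-value; aligner and peak caller: not given in the sources used here. Every candidate list holds 30000 lines, and the 7025 thresholded lines are those of highest signal in the pooled list. Read depth is unknown, so Wilson intervals (95%) cover counting of genes only and the replicates give the spread (n = 2). Summits were assigned to 17683 genes of Ensembl 115 with Python 3.11.15, and all 32 members have the same coordinates in RefSeq. The assignment was run on simulated single peaks upstream of a gene's outermost start, which does not test summits shared between genes. Members, lists and motifs were chosen with earlier results of these data known. All members are named; values are given for all bound members and all with a pooled candidate, and for the 2 strongest bound genes of each other list. Listed symbols Sf1 and Sart3 had no match. No test was run on counts of members, since set tests were not used.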

Additional observations from a re-analysis of the deposited data

How the results depend on the processing

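The count of bound members was 9 to 11 when either replicate was left out and changed with the rule for calling: 5 of 32 with the nearest start only, 6 in the upper 3512 thresholded peaks, 2 in the 1000 strongest, and 1 of the 9 members without a neighbouring start. The share of all genes bound was 20.2% with the nearest start only, 14.5% in the upper 3512 peaks and 4.58% in the 1000 strongest, and 21.2% of protein-coding genes without a neighbouring start were bound. Other backgrounds were 48.2% of genes with a pooled candidate and 46.9% of protein-coding genes with a close neighbour. In the 1000 strongest peaks the 2 remaining members gave a median signal of 562 and a median position of -265.5 bp. The other settings, a window of 200 or 1000 bp and any base of the peak among them, kept the member count within 1.5 times. Within 50 bp of the summit the DRE, the core of Motif 1, CACGTG and ACACTG were at 0% of bound members, the core of Ohler motif 5 at 9.09% and TATAAA at 27.3%; within 150 bp TCAGT was at 54.5%; and CACGTG was at 0% in fixed windows. Other spliceosome genes had 7 bound within 200 bp, 4 by nearest start, 6 in the upper 3512 peaks and 1 in the 1000 strongest. In the 1000 strongest, SR protein and kinase genes had 1, hnRNP and regulator genes 4 and snRNA genes 1. The exon junction complex had 1 by nearest start, 1 in the upper 3512, 0 in the 1000 strongest and 2 to 5 with 1 replicate left out, and SMN and assembly genes had 1 within 200 bp, 1 by nearest start, and 0 in both stricter sets. The cause was not tested. The background with a close neighbour and that with 1 start were added after seeing the data. No paired analysis was possible because the libraries form 1 group. The unknown depth limits what a missing peak shows.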
